A study of Mus musculus with 6 samples.

Results

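The collagen genes were followed in messenger RNA of mouse liver, 3 libraries without DEHP and 3 with it. DEHP, di(2-ethylhexyl) phthalate, is a softener of plastics. They were taken as every protein-coding row of the deposited count table whose symbol has the form of a collagen chain (Col, a type number, the letter a and a chain number), which gave 44 of 41096 rows with a gene name. Both groups are described only as liver tissue, with or without DEHP. The exposed columns are headed High, and the labels give no strain, age, sex, dose or length of exposure. Whether each library is a different animal is not stated, so p-values measure only the spread between libraries, which may be technical.

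Collagens are matrix proteins in which chains with a repeated glycine wind into a helix. The fibrillar types (I, II, III, V, XI, XXIV and XXVII) pack into the cables of scar and capsule, and types I and III are the bulk of scar collagen in fibrotic liver. Type IV forms the mesh of basement membranes, where the multiplexins XV and XVIII also lie, and type VI forms beaded filaments at cell surfaces. Fibril-associated collagens, such as types XII, XIV, XVI and XX, sit on fibrils, and types XIII, XVII, XXIII and XXV span the cell membrane. In liver, stellate cells and portal fibroblasts make most fibrillar collagen, endothelial cells much of type IV, and hepatocytes are a known source of type XVIII.

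Of the 44 genes, 38 had at least 1 count and 23 passed the low-count filter and were tested: 8 of 11 fibrillar genes, 5 of 8 basement membrane genes (types IV, XV and XVIII), 4 of 6 type VI genes and 6 of 19 others. With edgeR's quasi-likelihood test, 0 of the 23 passed an adjusted p of 0.05 (smallest edgeR adjusted p = 0.208), where 9 of 12468 genes passed in all, 0.0722%, and 0.016% passed as lower. DESeq2 called 1 of them, Col5a3, as lower, where it called 1.35% of all genes with an adjusted p as lower. With limma-voom 0 were called, where it called 0.016% of all genes in either direction. At an unadjusted p under 0.05 in edgeR, 3 collagens were lower and 0 higher, against 6.97% and 6.11% of all genes tested. The log2 fold change, exposed over control, was below 0 for 21 of the 23, with a median of -0.48, against 52.9% of all genes tested and a median of -0.03. With 1 library left out, it was below 0 for 17 of 24 (without control replicate 1) to 23 of 26 collagens tested. Some related and cell marker lists below had a like share below 0. The largest difference was in Col5a3, the fibrillar gene with the highest level. The smallest in a well-covered gene was in Col18a1, the most abundant collagen. In bulk tissue, fewer cells of a type and less RNA per cell cannot be told apart.

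**Figure D1:**
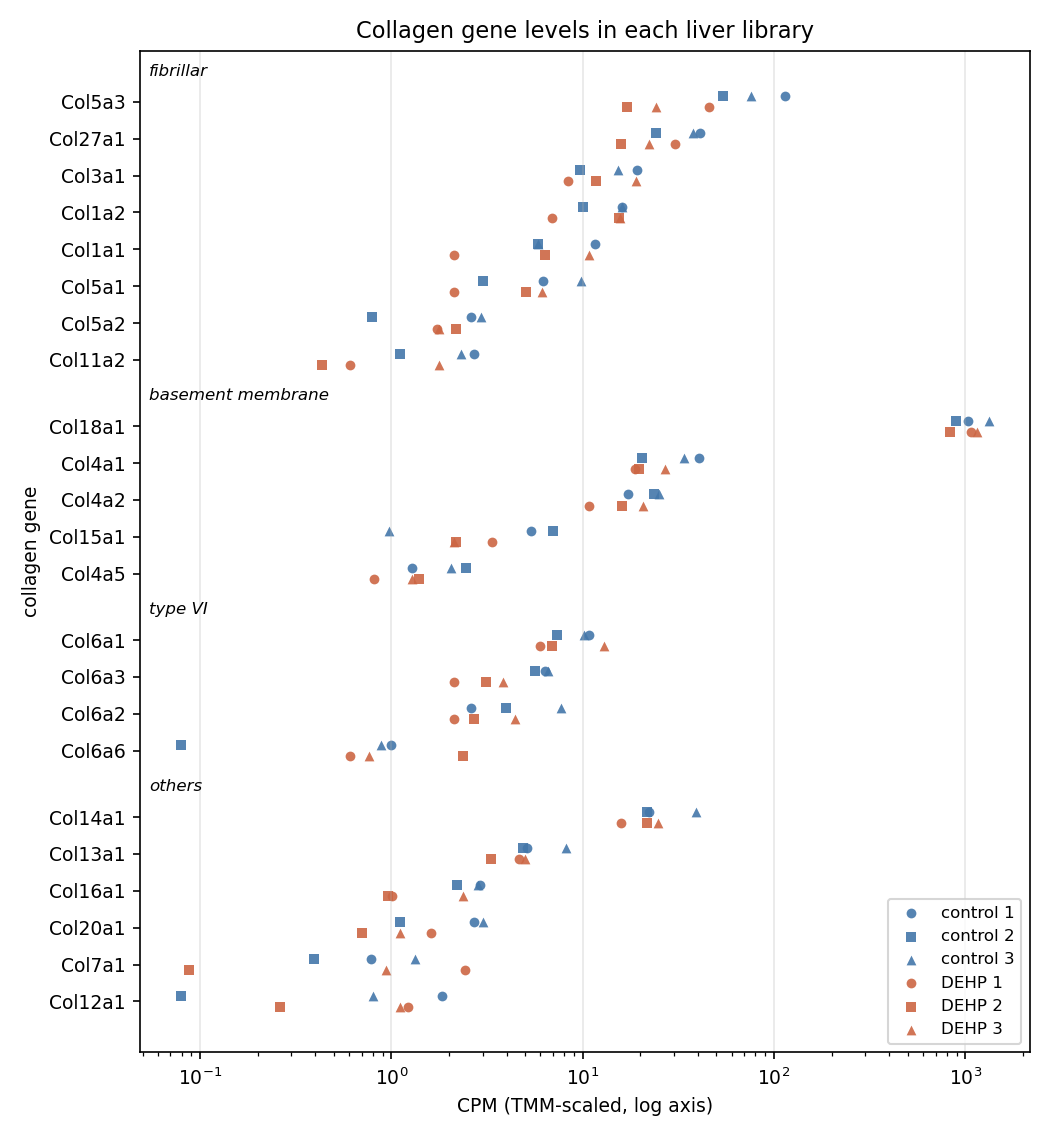
Level of each tested collagen gene in each library, in CPM (counts scaled to library size) on a log axis, by class; circles, squares and triangles are replicates 1, 2 and 3, blue for control and orange for DEHP. Col18a1 lies between 828 and 1336 CPM in every library (levels here are not per length), and the blue and orange points overlap for all but Col5a3 and Col6a3.

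The 2 tested genes whose groups did not overlap were Col5a3 and Col6a3, both lower in exposed livers, while 8.57% of all genes tested were lower without overlap. No tested collagen was higher without overlap, against 9.17% of all genes tested. The share of collagens lower without overlap is close to that of all genes. Both genes stand below with their start regions, from RefSeq on GRCm38.p6, which matched 35 of the 44 genes by symbol and gave 38 windows, each from 250 bases before to 50 bases after a start. Shown with them are Col1a2, a chain of the main scar collagen, and Col4a2, whose window holds the start of Col4a1 as well. Capitals mark 3 short motifs of start regions, searched on both strands and read as the reverse complement on the opposite one. The first is the CCAAT box, the next is the TATA box in the form TATAAA, and the last is the GC box in the form GGGCGG.
Col5a3, chr9:20815018-20815317, minus strand: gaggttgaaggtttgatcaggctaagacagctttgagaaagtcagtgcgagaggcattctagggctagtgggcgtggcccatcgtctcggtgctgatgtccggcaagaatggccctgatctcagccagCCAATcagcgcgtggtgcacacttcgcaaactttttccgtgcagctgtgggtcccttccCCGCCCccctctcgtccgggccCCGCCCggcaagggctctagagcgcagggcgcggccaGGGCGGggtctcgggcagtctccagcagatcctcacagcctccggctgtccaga
Col6a3, chr1:90843922-90844221, minus strand: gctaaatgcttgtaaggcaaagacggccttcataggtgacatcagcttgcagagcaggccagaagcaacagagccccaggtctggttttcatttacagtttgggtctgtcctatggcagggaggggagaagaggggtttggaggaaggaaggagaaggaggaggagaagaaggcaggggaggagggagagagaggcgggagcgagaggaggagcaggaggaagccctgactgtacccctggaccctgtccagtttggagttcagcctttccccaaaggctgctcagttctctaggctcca
Col1a2, chr6:4505368-4505667, plus strand: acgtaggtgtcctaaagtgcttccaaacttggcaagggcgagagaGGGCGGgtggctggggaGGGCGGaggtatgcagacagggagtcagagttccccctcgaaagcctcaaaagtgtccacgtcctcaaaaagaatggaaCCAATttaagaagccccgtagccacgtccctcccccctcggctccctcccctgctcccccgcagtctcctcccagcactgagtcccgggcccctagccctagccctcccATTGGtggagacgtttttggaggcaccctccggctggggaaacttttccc
Col4a2, chr8:11312555-11312854, plus strand: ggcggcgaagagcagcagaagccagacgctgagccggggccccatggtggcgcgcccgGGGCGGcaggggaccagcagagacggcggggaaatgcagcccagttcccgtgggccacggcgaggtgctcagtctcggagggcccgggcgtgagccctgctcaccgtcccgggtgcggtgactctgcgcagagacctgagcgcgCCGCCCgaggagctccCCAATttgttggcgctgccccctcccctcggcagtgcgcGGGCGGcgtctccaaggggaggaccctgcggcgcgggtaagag
The Col5a3 window holds 1 CCAAT box, whose first base lies 122 bases before the start, and 3 GC boxes. The Col6a3 window holds none of the 3 motifs, and Col1a2 holds 2 CCAAT boxes and 2 GC boxes. In these 4 windows no match overlaps another. A GC box was found in 23 of the 38 collagen windows and in 35.7% of all 32851 windows of that length, a CCAAT box in 13 against 37.4%, and a TATA box in 5 against 13.6%. The letters describe these windows and say nothing of which factor binds there.

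Col5a3 encodes the alpha-3 chain of type V collagen, which joins other type V chains in fibrils. Its level was 114, 54.0 and 76.1 CPM in control replicates 1 to 3, and 45.7, 17.1 and 24.1 CPM in DEHP replicates 1 to 3. Every exposed library lay under every control library, although control replicate 2 and DEHP replicate 1 lay close together. The log2 fold change was -1.496 ± 0.39 (SE, edgeR adjusted p = 0.208), on counts of 1615, 683 and 859 against 451, 196 and 284. Some choices of filter, tool, model and library moved this gene across the threshold, and others did not. It passed with DESeq2 (adjusted p = 0.00312), where 1.35% of genes passed as lower, and with no low-count filter (1.08e-07), where 1.34% did. It also passed without DEHP replicate 1 (0.0471), where 0.031% did. With the replicate number as a block it passed as well (0.0380), the only gene to pass as lower there (0.00802% of genes tested). The replicate numbers were not taken to pair the libraries. Leaving out any other library gave an adjusted p from 0.104 to 0.602, and limma-voom gave 0.231. In edgeR, Col5a3 also missed the threshold with RLE scaling (0.202), with a filter on mean CPM (0.210) and without the robust option (0.137). Among the fibrillar genes Col5a3 had the highest level per length, with 11.97 ± 4.49 CPM per kilobase of deposited gene length in controls (SD, n = 3) and 4.25 ± 2.19 in exposed livers. The gene spans chromosome 9 from 18649811 to 18696697 on the minus strand, by the deposited coordinates, taken from the C57BL/6NJ strain annotation.

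The other chains of type V had smaller fold changes. Col5a1, the chain shared by most type V molecules, was 6.17, 3.00 and 9.84 CPM in controls against 2.13, 5.06 and 6.12 with DEHP (log2 fold change -0.50 ± 0.48, adjusted p = 0.698). Col5a2 was 2.62, 0.790 and 2.92 CPM against 1.72, 2.18 and 1.78 (-0.15 ± 0.59, adjusted p = 0.942). Both overlapped between groups. Per length, Col5a3 stood 23.1, 22.4 and 9.65 times above Col5a1 in control replicates 1 to 3. In DEHP replicates 1 to 3 the ratio was 26.8, 4.21 and 4.92. DEHP replicate 1, which had the most Col5a3 of the exposed libraries, lay above every control in this ratio. The difference in the group means thus rests on DEHP replicates 2 and 3. Col5a1 had only 21 counts in DEHP replicate 1, against 87 and 38 in control replicates 1 and 2. The order of the ratio among these libraries is therefore uncertain.

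The chains of types I and III, the collagens of scar tissue, overlapped between the groups. Col1a1 stood at 11.6, 5.85 and 5.85 CPM in controls and 2.13, 6.37 and 10.8 with DEHP (log2 fold change -0.27 ± 0.51, adjusted p = 0.866). Its partner chain Col1a2 was 16.0, 10.04 and 16.0 CPM against 6.89, 15.5 and 15.6 (-0.14 ± 0.32, adjusted p = 0.894). Col3a1 was 19.2, 9.64 and 15.3 CPM against 8.41, 11.8 and 19.03 (-0.17 ± 0.33, adjusted p = 0.868). For all 3 genes the lowest library was DEHP replicate 1, and the other exposed libraries lay inside the control range. Without DEHP replicate 1 their log2 fold changes were 0.16, 0.17 and 0.08. Per deposited length (6546 bases for Col1a1, 12427 for Col1a2), Col1a1 and Col1a2 were at like levels. The ratio was 1.06 ± 0.341 in controls and 0.892 ± 0.375 in exposed livers (SD, n = 3). It depends on those lengths, since in CPM Col1a2 was the higher (14.0 ± 3.46 against 7.75 ± 3.29 in controls).

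The remaining fibrillar genes were Col27a1 and Col11a2. Col27a1, a type XXVII chain best known from cartilage, was 41.0, 24.3 and 37.8 CPM in controls and 30.5, 15.9 and 22.2 in exposed livers (-0.59 ± 0.27, unadjusted p = 0.0436, adjusted p = 0.373 in edgeR). Its groups overlapped through control replicate 2. Col11a2, a chain of type XI, was read with 110 counts in all (log2 fold change -1.09 ± 0.70, adjusted p = 0.533). Col24a1 had 24 counts in all and was not tested, and Col2a1 and Col11a1, the main chains of cartilage types II and XI, had none.

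**Figure D2:**
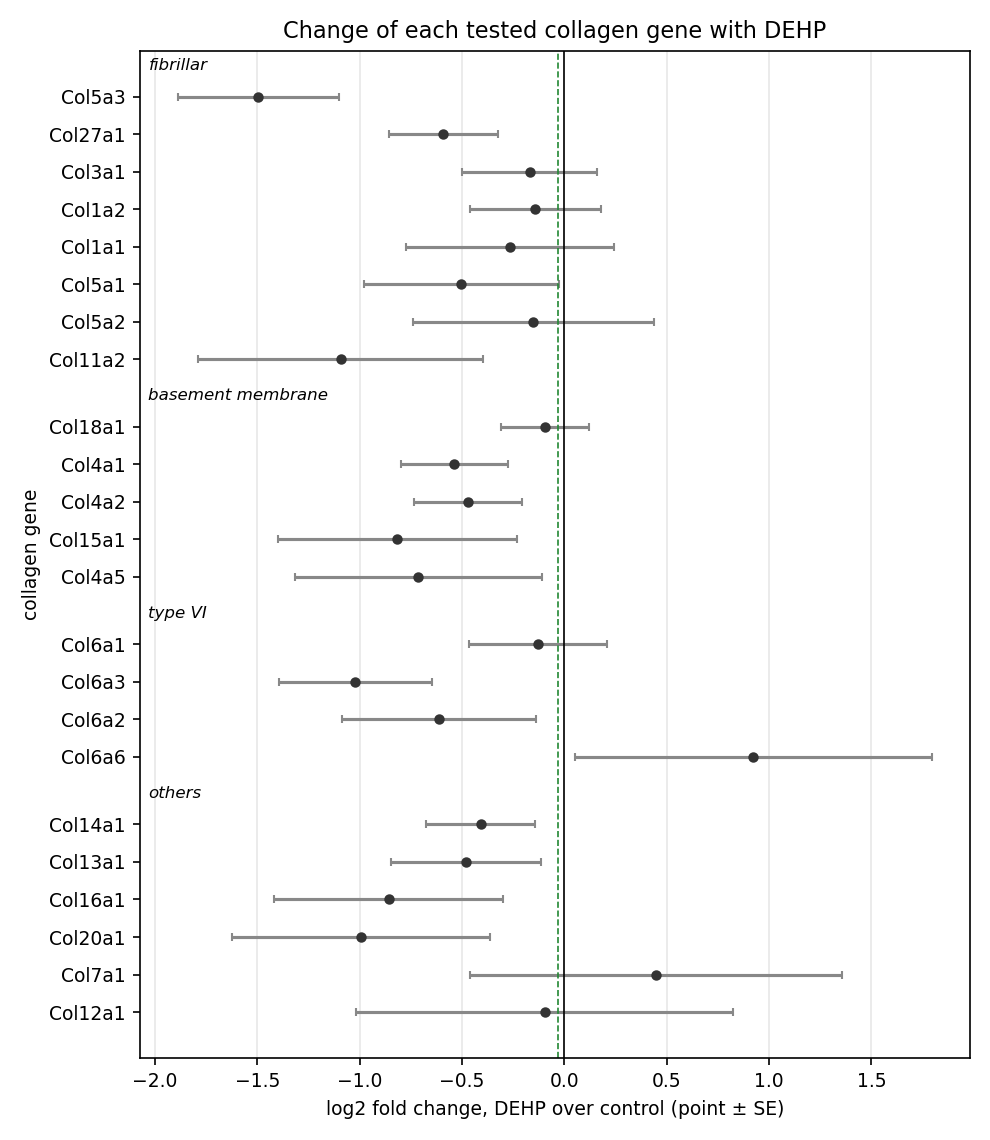
Log2 fold change of each tested collagen gene, exposed over control, with its standard error; the dashed green line is the median of all genes tested, at -0.03. Points lie left of 0 for 21 of 23 genes, Col5a3 farthest at -1.496, and Col6a6 and Col7a1 lie to the right with wide bars.

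Col18a1 dominated the collagen messenger RNA of these livers. It took 79.0% ± 3.32 of all collagen counts in controls and 84.8% ± 1.14 in exposed livers (SD, n = 3), and its level per length was 155 ± 32.1 and 145 ± 24.3 CPM per kilobase. Its level was 1032, 895 and 1336 CPM in controls and 1078, 828 and 1155 in exposed livers, so the groups overlapped (log2 fold change -0.09 ± 0.21, adjusted p = 0.897). Next in level per length in controls came Col5a3, Col4a1 (4.64 ± 1.51 CPM per kilobase), Col14a1 (3.94 ± 1.42), Col4a2 (3.32 ± 0.634), Col27a1 (2.64 ± 0.684) and Col6a1 (2.15 ± 0.414). From Col4a1 down, the range of mean ± SD of each overlapped that of the next, and the order depends on the deposited lengths. The sign of the Col18a1 difference turned without control replicate 3 (0.10) or DEHP replicate 2 (0.05). The gene encodes a proteoglycan core whose end fragment is endostatin. RefSeq lists 2 start regions for it, and the counts, given per gene, do not tell transcripts from them apart.

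The type IV genes lie in head-to-head pairs. In the deposited table Col4a1 ends on chromosome 8 at 8867068 on the minus strand, and Col4a2 begins at 8867047 on the plus strand, an overlap of 22 bases. RefSeq places their starts on GRCm38.p6 at 11312826 and 11312805, also 22 bases shared, inside the Col4a2 window printed above. Col4a1, which with Col4a2 forms the common network of vessel walls and sinusoids, was 40.8, 20.5 and 33.8 CPM in controls and 18.7, 19.6 and 27.0 in exposed livers (-0.54 ± 0.26, adjusted p = 0.399). Col4a2 was 17.2, 23.7 and 25.1 CPM against 10.7, 16.1 and 20.7 (-0.47 ± 0.26, adjusted p = 0.464). In both genes 2 of 3 exposed libraries lay under all controls, DEHP replicate 3 being the exception. The per-length ratio of Col4a1 to Col4a2 was 2.30, 0.838 and 1.31 in controls and 1.69, 1.19 and 1.27 in exposed livers, so the pair did not keep a fixed ratio from library to library.

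Col4a5 and Col4a6, on chromosome X with 1308 bases between them, were sparse: Col4a5 had 111 counts in all (-0.71 ± 0.60, adjusted p = 0.661), and Col4a6 had 14 and was not tested. Col4a3 and Col4a4, chains of the kidney filter membrane that lie 71 bases apart on chromosome 1, were not tested either. Col4a3 was counted 12, 6 and 21 times in controls and 4, 5 and 5 times with DEHP, while Col4a4 had 10, 0 and 7 against 15, 11 and 7. The members of this pair thus leaned opposite ways at a depth where counting error is large. An annotated transcript on the opposite strand overlaps Col4a3 and holds 88 counts, beside 53 for Col4a3, so the Col4a3 counts are uncertain.

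Col15a1, a multiplexin of vessel basement membranes, split the controls. Its level was 5.39 and 7.03 CPM in control replicates 1 and 2 and 0.975 in control replicate 3, on 76, 89 and 11 counts. Exposed livers had 3.34, 2.18 and 2.12 CPM, above control replicate 3 and below the other controls (-0.82 ± 0.58, adjusted p = 0.591). Leaving out control replicates 1 and 2, an alternative added with these values in view, keeps control replicate 3 as the only control. The log2 fold change was then 1.38, a sign set by that choice of libraries. Macrophage markers split the same libraries: 15 marker rows summed to 928 and 848 CPM in control replicates 1 and 2, 309 in control replicate 3, and 316 to 459 in exposed livers. Their part in the Col15a1 values was not tested.

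Type VI collagen is assembled from an alpha-1, an alpha-2 and a further chain, most often alpha-3. Col6a3, the alpha-3 gene, was 6.38, 5.61 and 6.56 CPM in controls and 2.13, 3.14 and 3.82 in exposed livers, with all exposed libraries under all controls. Its log2 fold change was -1.02 ± 0.37 (unadjusted p = 0.0156, adjusted p = 0.290 in edgeR), on 90, 71 and 74 counts against 21, 36 and 45. Col6a1 was 10.8, 7.35 and 10.1 CPM against 5.97, 6.89 and 12.9, with the highest library an exposed one (-0.13 ± 0.34, adjusted p = 0.911). Col6a2 was 2.62, 3.95 and 7.71 CPM against 2.13, 2.70 and 4.42 (-0.61 ± 0.47, adjusted p = 0.621). The per-length ratio of Col6a3 to Col6a1 was 0.217, 0.279 and 0.238 in controls and 0.130, 0.167 and 0.108 in exposed livers, groups that do not overlap. This ratio was chosen with its values in view and is given without a test. Of the ratios computed between collagen chains, it was the only one whose groups did not overlap.

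Col6a1 and Col6a2 are neighbours on chromosome 10, with 90988 bases between them and the same strand, and Col6a3 lies apart on chromosome 1 from 95833719 to 95920221. The alternative further chains sit together on chromosome 9. Of these, Col6a6 had 67 counts in all, with 2.36 CPM in DEHP replicate 2 and 0.0790 to 0.992 CPM elsewhere (0.92 ± 0.87, adjusted p = 0.697). Col6a5 had 17 counts, and Col6a4 had none.

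Among the others, Col14a1, a fibril-associated chain, was the most abundant. It was 22.1, 21.7 and 39.1 CPM in controls and 15.8, 21.8 and 24.6 in exposed livers (-0.41 ± 0.27, adjusted p = 0.545). Control replicate 3 alone stood above the exposed range, and without it the log2 fold change was -0.05. The other fibril-associated genes that passed the filter had lower counts. Col16a1 stood at 2.91, 2.21 and 2.84 CPM against 1.01, 0.960 and 2.38 (-0.86 ± 0.56, adjusted p = 0.546), its groups overlapping only through control replicate 2 and DEHP replicate 3. Col12a1 had 64 counts in all (-0.10 ± 0.92, adjusted p = 0.976). Col20a1 had -0.99 ± 0.63 (adjusted p = 0.529), but its 123 counts lie beside 154 counts in an annotated transcript of the same strand that overlaps it, so the value is uncertain.

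Col13a1, a collagen of the cell membrane, was 5.10, 4.90 and 8.15 CPM in controls and 4.66, 3.31 and 5.01 in exposed livers (-0.48 ± 0.37, adjusted p = 0.618). Col7a1, which forms the anchoring fibrils of skin, had 67 counts in all and -0.25 with limma-voom against 0.45 ± 0.91 (adjusted p = 0.876) with edgeR. The 15 genes with some counts that missed the filter held 1 to 53 counts each over the 6 libraries, and never more than 21 in 1 library. Of these, the exposed mean was lower for 9 and higher for 6. Besides Col2a1, Col11a1 and Col6a4, no read was counted for Col9a1, Col19a1 or Col26a1. A count of 0 allows a level of up to 0.213 to 0.304 CPM in a library, taking 3 counts as the limit and covering counting error only.

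Summed by class, the fibrillar genes gave 214, 109 and 167 CPM in controls and 98.5, 74.8 and 102 in exposed livers, and the groups did not overlap. The log2 ratio of the group means was -0.83 with Col5a3 in the sum and -0.38 without it, and without it the groups overlapped. The 8 basement membrane genes summed to 1150 ± 230 and 1063 ± 175 CPM (SD, n = 3, log2 ratio -0.11). That sum is mostly Col18a1. The other 7 summed to 66.6, 54.1 and 64.5 CPM in controls and 35.5, 40.9 and 52.4 in exposed livers (log2 ratio -0.52). All exposed libraries lay below all controls, but control replicate 2 and DEHP replicate 3 lay close together. Leaving out members, with the values in view, made the groups overlap without Col4a2 or without Col15a1. Of the 5 tested basement membrane genes, 0 were lower or higher without overlap. Type VI genes summed to 21.3 ± 4.51 and 16.1 ± 5.91 CPM (-0.40), and the 19 others to 42.7 ± 12.9 and 31.1 ± 5.09 CPM (-0.45). These sums use every member, tested or not, and carry no test.

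**Figure D3:**
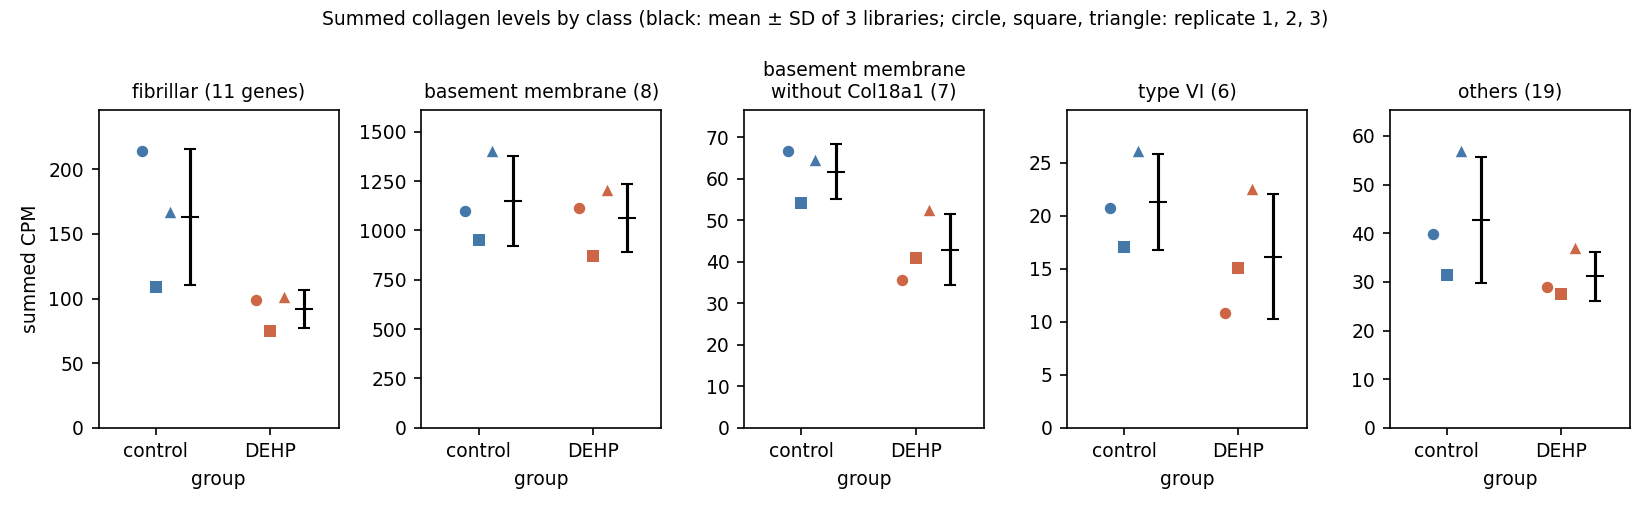
Summed CPM of each collagen class in each library, with the mean and SD of 3 libraries in black and axes that start at 0. The exposed points lie under all control points for the fibrillar class (74.8 to 102 against 109 to 214 CPM) and, narrowly, for basement membrane genes without Col18a1. They overlap the controls in the other panels. The fibrillar groups overlap without Col5a3, and the narrow gap closes without Col4a2 or without Col15a1.

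The libraries differed in how the collagens stood as a set. DEHP replicate 1 was the lowest library for 11 of the 23 tested genes and DEHP replicate 2 for 8, against 15.6% and 23.8% of all genes tested. Control replicate 3 was the highest for 10 and control replicate 1 for 8, against 14.8% and 22.9%. DEHP replicate 3 was the lowest for 0 and control replicate 2 for 3, against 11.9% and 13.0%. Measured from each gene's exposed mean on the log2(CPM + 0.5) scale, the median collagen stood at 0.54, 0.08 and 0.64 in control replicates 1 to 3, and at -0.29, -0.13 and 0.32 in DEHP replicates 1 to 3. Control replicate 2 thus stood below DEHP replicate 3 in this median. Without control replicate 3, 400 genes passed over the whole table, 2.16% of genes as lower, and 0 of 25 collagens (edgeR, 3 of the 25 lower at an unadjusted p under 0.05, where 8.32% of all genes were). The median log2 fold change of the collagens tested was then -0.19.

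**Figure D4:**
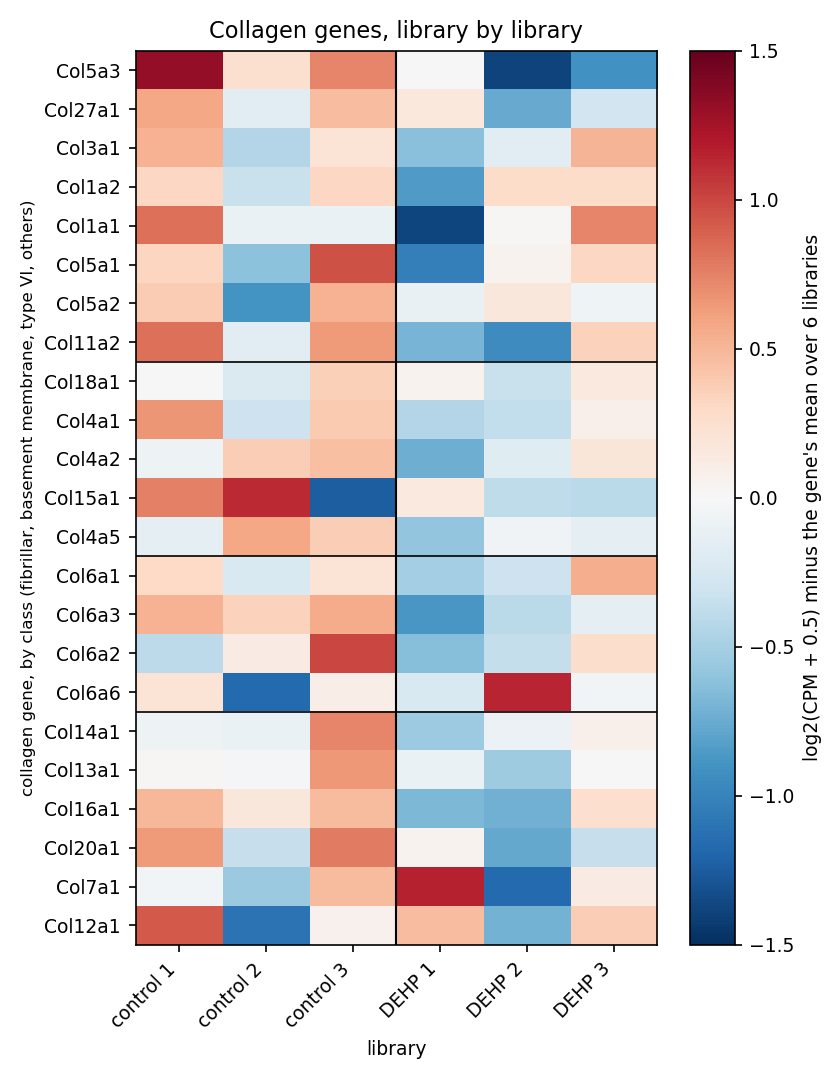
Log2(CPM + 0.5) of each tested collagen gene minus its mean over the 6 libraries, controls left and exposed right of the black line, rows by class. Control replicates 1 and 3 are mostly red and DEHP replicates 1 and 2 mostly blue, while control replicate 2 and DEHP replicate 3 are mixed; Col15a1 in control replicate 3 is among the deepest blue cells.

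Genes that act on collagens were listed by role, and with edgeR 0 of 175 tested rows of these lists and of the cell marker lists below passed an adjusted p of 0.05. DESeq2 called 9, all lower (C1qa, Colec11, Dnase1l3, Ecm1, Emilin1, Mmp14, Pcolce, Tgm2 and Vipr1), where it called 1.35% of all genes as lower, and limma-voom 0. The counts that follow are of genes lower and higher at an unadjusted p under 0.05 in edgeR, where 6.97% of all genes tested were lower and 6.11% higher. Of 18 tested genes for folding and modification, 2 were lower and 0 higher (median -0.39), a share near that of all genes. The list's 2 most abundant members per length are also used for other secreted proteins: P4hb, the protein disulfide isomerase that is a subunit of prolyl hydroxylase, was at 0.13 ± 0.19 (adjusted p = 0.813), and Ppib, a prolyl isomerase, at -0.03 ± 0.20 (0.963). Serpinh1, the collagen chaperone HSP47, was 7.09, 9.09 and 16.7 CPM in controls and 5.77, 6.37 and 10.1 in exposed livers (-0.55 ± 0.36, adjusted p = 0.543). It was chosen with its values in view.

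For procollagen cleavage and crosslinking, 2 of 9 tested genes were lower and 0 higher (median -0.19), where 6.97% of all genes tested were lower and 6.11% higher. Bmp1, the proteinase that removes the end propeptide of fibrillar procollagens, was at -0.11 ± 0.20 (adjusted p = 0.859), and Furin, a convertase of proproteins, at -0.19 ± 0.22 (0.767). Pcolce, the enhancer protein of that proteinase, was 11.3, 13.4 and 7.89 CPM in controls and 3.54, 2.70 and 4.33 in exposed livers (-1.62 ± 0.34, adjusted p = 0.128), with no overlap. It too was chosen with its values in view. Lox, the lysyl oxidase that starts crosslinks, was under the filter. Among 12 tested genes of collagen breakdown, 1 was lower and 0 higher (median -0.21), near the share of all genes. The cathepsins Ctsl (0.29 ± 0.21, adjusted p = 0.601) and Ctsb (-0.16 ± 0.19, 0.758) were the most abundant per length. Mmp14, a membrane-bound collagenase, was 90.8, 71.4 and 72.1 CPM against 35.9, 45.9 and 42.6 (-0.91 ± 0.19, adjusted p = 0.128), again chosen with its values in view.

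Of 8 tested collagen receptors, 0 were lower or higher at that level (median -0.48), and their most abundant members were Itgb1, the shared integrin beta-1 chain (0.15 ± 0.19, adjusted p = 0.779), and Mrc1, the mannose receptor (-0.19 ± 0.18, 0.711). The laminins and other basement membrane proteins had 6 of 18 lower and 0 higher (median -0.54), where 6.97% of all genes tested were lower and 6.11% higher. Their sum was 233 to 267 CPM in controls and 127 to 211 in exposed livers. That separation rests on Agrn, without which the sums were 167, 151 and 220 CPM against 111, 103 and 169 and the groups overlapped. Sparc, which binds collagen, was at -0.62 ± 0.28 (adjusted p = 0.378), and Agrn, the proteoglycan agrin, at -0.96 ± 0.32 (0.276). Fibril-binding proteoglycans and glycoproteins had 3 of 22 lower and 0 higher (median -0.24), with Fn1, fibronectin, at -0.16 ± 0.20 (adjusted p = 0.773). Of 20 tested rows of the TGF-beta pathway, which drives collagen genes in fibrosis, 3 were lower and 1 higher (median -0.18). Tgfbi, a matrix protein induced by TGF-beta, was at -0.77 ± 0.26 (adjusted p = 0.253), and Smad4, the shared signal transducer, at 0.19 ± 0.21 (0.752).

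Markers of the cells that make collagen were compared in the same libraries. All 16 stellate cell markers were tested, and 7 were lower and 0 higher at an unadjusted p under 0.05 (median -0.77), where 6.97% of all genes tested were lower and 6.11% higher. Their sum was 651, 681 and 956 CPM in controls and 507, 585 and 587 in exposed livers. The groups did not overlap with all 16 markers, but did without Ecm1, when the sums were 423, 517 and 662 CPM against 387, 478 and 483. Leaving out any of the other 15 did not make them overlap. Ecm1, an extracellular matrix protein that also stands in the proteoglycan list, was at -1.05 ± 0.22 (adjusted p = 0.128), and Dcn, decorin, at -0.35 ± 0.23 (0.536). Lrat, the retinol-esterifying enzyme that defines resting stellate cells, was at -0.41 ± 0.40 (0.717).

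The 16 sinusoidal endothelial markers had 4 lower and 0 higher (median -0.39), where 6.97% of all genes tested were lower and 6.11% higher. Their sums were 664, 644 and 774 CPM against 537, 335 and 661, so the groups overlapped, and without Eng they did not (550 to 650 CPM against 284 to 530). Eng, endoglin, was at -0.23 ± 0.29 (adjusted p = 0.786), and Clec4g, a lectin of these cells, at -0.84 ± 0.29 (0.281). Of 12 portal fibroblast markers 7 were tested, 1 lower and 0 higher (median -0.56). They summed to 100 to 113 CPM in controls and 50.6 to 91.0 in exposed livers, of which Gas6, a ligand of TAM receptors, made up 76.2%. Without Gas6 the sums were 24.8, 20.3 and 22.4 CPM against 12.7, 18.8 and 28.9, and the groups overlapped. Gas6 was at -0.75 ± 0.24 (adjusted p = 0.236) and Dpt, dermatopontin, at 0.03 ± 0.40 (0.982), and 3 of the 7 tested markers had a log2 fold change above 0.

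Myofibroblast markers summed to 96.9, 110 and 125 CPM in controls and 94.8, 114 and 111 in exposed livers. Spp1, osteopontin, made up 42.5% of that sum and is listed as a cholangiocyte marker too. Of 7 tested, 0 were lower or higher (median -0.17), with Spp1 at -0.19 ± 0.35 (adjusted p = 0.865) and Tagln, transgelin, at 0.48 ± 0.30 (0.525). Acta2, smooth muscle actin, was at -0.21 ± 0.50 (0.902). Macrophage markers had 5 of 14 lower and 0 higher (median -0.67), where 6.97% of all genes tested were lower and 6.11% higher, and were led per length by C1qa, a complement subunit (-1.31 ± 0.49, adjusted p = 0.350), and Clec4f, a Kupffer cell lectin (-0.87 ± 0.38, 0.380). Cholangiocyte markers had 0 of 7 in either direction (median -0.33). Itgam among the macrophage markers was at 0 in every library. The liver label was checked against hepatocyte markers, of which Alb, albumin, stood at 86730 ± 18516.5 CPM in controls and 80858 ± 14975.3 in exposed livers (SD, n = 3). Of 8 tested hepatocyte markers, 1 was lower and 2 were higher at an unadjusted p under 0.05 (median -0.08, against the same shares of all genes). Log2 fold changes were below 0 for 15 of 16 tested endothelial, 14 of 16 stellate and 12 of 14 macrophage markers. They were also below 0 for 16 of 18 laminins and other basement membrane proteins. The share was smaller in hepatocyte markers (5 of 8), collagen breakdown (7 of 12) and the TGF-beta pathway (12 of 20). A leaning below 0 was thus not particular to the collagens. The part of these cell markers in the collagen values was not tested.

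**Figure D5:**
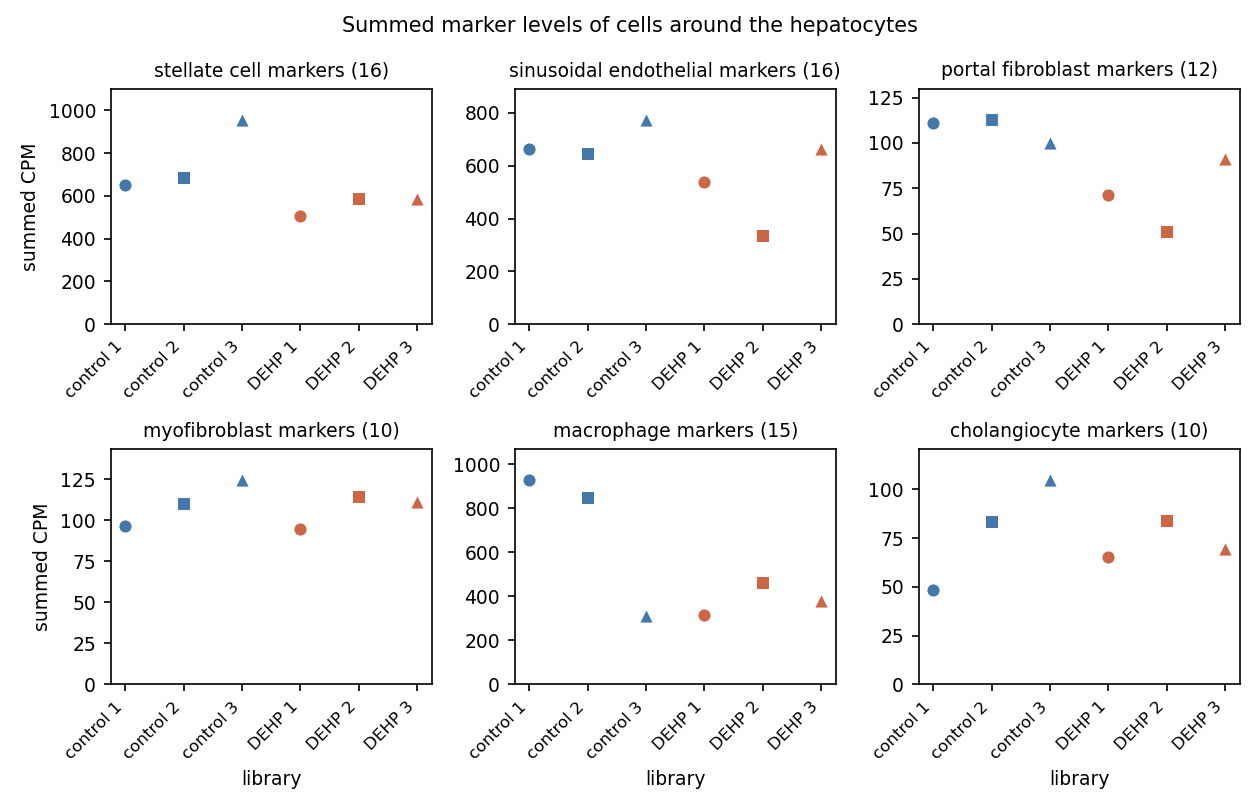
Summed CPM of marker genes in each library, with the number of marker rows in each title and axes that start at 0. Stellate cell and portal fibroblast sums are lower in all exposed libraries than in all controls, but overlap without Ecm1 and without Gas6 respectively; endothelial and myofibroblast sums overlap, and macrophage sums are high in control replicates 1 and 2 only (928 and 848 CPM).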

How the data were processed

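Polyadenylated RNA of mouse liver was sequenced in pairs; the library kit keeps the strand, per the labels' protocols. The authors deposited 1 table of whole-number counts per gene, not normalized, with gene lengths. The submitters' processing notes name GRCm38.p6, while gene identifiers and coordinates are those of the Ensembl C57BL/6NJ strain annotation. Groups come from the sample titles, because the series' design text is about a different assay. The exposed columns are headed High. The aligner, the counting program and its use of strand are named neither in the labels nor in the file header.

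Rows without a gene name (1284 of 42380, 2.73% to 4.28% of counts) were left out. Named rows held 10042875 to 13841280 counts a library. The deposited counts went into edgeR 4.0.16 (R 4.3.3): filterByExpr (minimum count 10), TMM scaling, the quasi-likelihood test with the robust option, DEHP against control, no covariate, two-sided, Benjamini-Hochberg adjustment over 12468 genes, threshold 0.05. A standard error is the fold change over the root of F. CPM use the TMM-scaled total of tested genes, and CPM per kilobase divide by the deposited length. That length may differ from the length of the transcripts present, so levels per length of different genes compare only roughly. The common biological coefficient of variation was 27.8%. On simulated counts with known changes, the script was checked first. It called 28 of 94 genes with a log2 change of 1 in either direction, and 72 of 92 with a change of 2. Of 11991 unchanged genes it called 6. Most changes of the smaller size were thus missed. No 2 libraries of a group were alike within sampling noise (chi-square over its degrees of freedom at least 30.6).

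The collagen genes, related gene lists and cell marker lists were chosen with earlier results of these data known. Every tested collagen was named, and from each related list the 2 most abundant tested members per length, except where a gene is not reported here; the defining cell markers Lrat, Acta2 and Alb were added, and any further gene is marked where it was chosen with its values in view. Alternatives were DESeq2 1.42.0, limma-voom (limma 3.58.1), RLE scaling, no filter or one on mean CPM (at least 1), the fit without the robust option, a block for replicate number, and each library left out; leaving out control replicates 1 and 2 together, and each member of a related list from its sum, was chosen after the data were seen.

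Of the 23 tested collagens, 17 overlap another annotated row, and for 3 (Col4a1, Col4a2 and Col20a1) that row holds at least 10% of the gene's own counts; for Col4a1 and Col4a2 it is each other's.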

Additional observations from a re-analysis of the deposited data

How the results depend on the processing

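The number of genes that passed an adjusted p of 0.05 was 9, and 496 with no filter, 272 with DESeq2, 2 with limma-voom, and 5 to 400 with 1 library left out (400 without control replicate 3, 19 without DEHP replicate 1). Without control replicates 1 and 2 it was 0 (edgeR, 642 at an unadjusted p under 0.05). The number of collagens that passed was 0, and 1 with no filter, 1 with DESeq2, and 0 to 1 with 1 library left out. Same-numbered libraries did not deviate together (correlations of -0.02, 0.06 and -0.03 over all tested genes, and not every library correlated best with its own number), so the numbers were not taken to pair them. With the replicate number as a block, 6 genes passed in all, 1 of them lower (0.00802% of genes tested), and that was the collagen Col5a3 (adjusted p = 0.0380). The cause of these differences was not tested.

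The median log2 fold change of the tested collagens was -0.48 and ran from -0.65 to -0.19 with 1 library left out. The collagens below 0 were 17 of 24 tested without control replicate 1 and 19 of 24 without DEHP replicate 1. They were 20 of 25 without control replicate 3 or DEHP replicate 2, and 23 of 26 without control replicate 2 or DEHP replicate 3. The log2 ratio of the summed basement membrane class, -0.11, ran from -0.23 to 0.074 with 1 library left out (0.074 without control replicate 3, 0.02 without DEHP replicate 2), and was -0.39 without control replicates 1 and 2, where the class of 19 other genes, at -0.45 with all libraries, stood at -0.86. The fibrillar class ran from -1.05 to -0.59.

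Signs turned for 9 genes, none of which passed under any alternative tried. With 1 library left out, log2 fold changes ran from -0.21 to 0.10 for Col18a1, -0.54 to 0.083 for Col3a1, -0.33 to 0.17 for Col1a2, -0.54 to 0.093 for Col6a1, -0.86 to 0.16 for Col1a1, -0.54 to 0.17 for Col5a2, -0.67 to 1.01 for Col7a1 and -0.63 to 0.98 for Col12a1. With limma-voom they were 0.055 for Col5a2, -0.25 for Col7a1 and 0.36 for Col12a1, and with the replicate block 0.21 for Col12a1. Without control replicates 1 and 2, with control replicate 3 as the only control, they were 0.16 for Col1a1, 1.38 for Col15a1, -0.22 for Col7a1 and 0.11 for Col12a1. The sign of Col15a1 turned only there, in an alternative chosen with its values in view. Of 316 values of single collagens under these alternatives, 290 kept their sign and their side of the threshold. Col7a1, Col6a6 and Col12a1, with 67, 67 and 64 counts in all, are limited by depth.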
